A study of Mus musculus with 4 samples.

Results

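Megakaryocyte-lineage cells were examined in mouse embryoid bodies, aggregates in which embryonic stem cells differentiate, at day 9 of culture. A cell was counted as a member if it held 1 or more unique molecular identifiers (UMIs, each counted once per captured RNA molecule) of at least 2 of Itga2b, Gp9 and Ppbp. It also had to hold fewer than 4 of the 6 macrophage genes C1qa, C1qb, Tyrobp, Csf1r, Cx3cr1 and Laptm5. This left 92 members among 8876 kept cells, which were those of 10090 cells in the table with 500 or more genes detected and mitochondrial counts of 10% or less. The DUX-pulsed group was 2 libraries of embryoid bodies made from stem cells after a DUX pulse, and the control group was 2 libraries made from control stem cells. All 4 were droplet libraries (10x Genomics) of the whole culture, with no sort for blood cells. Neither a strain, nor the construct that carried DUX, nor the length of the pulse was given in the labels. Libraries within a group are biological replicates, per the series design.

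Megakaryocytes are the large polyploid cells of the blood lineage that release platelets through long extensions rich in microtubules. They share a progenitor with red cells, and in the mouse embryo the earliest ones arise in the yolk sac beside primitive erythroid cells and macrophages. GATA1, FLI1, RUNX1, TAL1 and NFE2 drive their genes, and their platelets adhere through the von Willebrand factor receptor (Gp1ba, Gp1bb, Gp5, Gp9) and the fibrinogen receptor (Itga2b, Itgb3). DUX is a transcription factor of the early cleavage stage mouse embryo.

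Promoter sequences are given first because GATA and ETS factors are the best known regulators of platelet receptor genes. In the RefSeq promoter table for GRCm38.p6, the 250 bases before the gene start were searched on both strands for the GATA motif AGATAA or TGATAA and the ETS motif CCGGAA or CAGGAA. Of the 20 genes with the largest log2 difference between members and all other kept cells, 16 had a promoter in the table, and 8 of these held a GATA motif, 5 an ETS motif and 3 both, which is 31.2% for ETS and 18.8% for both. Among all 32851 promoters the shares were 16.6% for GATA, 35.1% for ETS and 5.07% for both. The promoters of Gp1ba, Ly6g6f and Mmrn1 are shown because they were the 3 that held both motifs. Pf4 is shown beside them because it is the gene used below to check the label, and it held neither motif. Capitals mark the motifs, which lie on either strand, and each sequence runs 5′ to 3′ on the strand of its gene.
Gp1ba, chr11:70638872-70639121, plus strand: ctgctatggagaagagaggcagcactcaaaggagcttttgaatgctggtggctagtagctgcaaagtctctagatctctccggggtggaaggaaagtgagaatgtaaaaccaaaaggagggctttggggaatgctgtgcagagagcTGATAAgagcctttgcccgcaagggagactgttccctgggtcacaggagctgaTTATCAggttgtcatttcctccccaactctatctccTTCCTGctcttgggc
Ly6g6f, chr17:35085596-35085845, minus strand: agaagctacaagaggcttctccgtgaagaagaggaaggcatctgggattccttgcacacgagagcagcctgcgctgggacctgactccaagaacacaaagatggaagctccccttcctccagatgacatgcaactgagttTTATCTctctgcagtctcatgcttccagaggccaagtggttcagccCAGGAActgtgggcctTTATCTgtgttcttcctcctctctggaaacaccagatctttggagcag
Mmrn1, chr6:60944067-60944316, plus strand: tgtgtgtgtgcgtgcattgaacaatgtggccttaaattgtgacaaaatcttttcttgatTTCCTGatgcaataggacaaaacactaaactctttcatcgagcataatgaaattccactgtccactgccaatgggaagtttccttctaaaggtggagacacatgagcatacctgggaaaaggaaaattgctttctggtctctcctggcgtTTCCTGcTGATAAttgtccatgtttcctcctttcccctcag
Pf4, chr5:90772185-90772434, plus strand: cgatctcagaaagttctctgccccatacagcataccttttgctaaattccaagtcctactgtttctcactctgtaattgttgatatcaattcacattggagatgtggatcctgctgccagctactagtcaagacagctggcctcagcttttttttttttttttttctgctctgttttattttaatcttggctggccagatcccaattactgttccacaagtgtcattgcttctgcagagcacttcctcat
The GATA motifs of Gp1ba began 104 and 51 bases before the gene start and its ETS motif 15 bases before it. In Mmrn1 an ETS motif stood 41 bases and the GATA motif 34 bases before the start, with 1 base between them. By gene list, a GATA motif was found in 9 of 20 matched promoters of surface receptors (45.0%), 5 of 20 of transcription factors, 5 of 23 of platelet signalling genes (21.7%), 2 of 17 of granule genes (11.8%) and 1 of 21 of cytoskeleton genes (4.76%). These matches describe letters in a fixed window and were not tested.

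The label was checked against Pf4, a chemokine stored in platelet granules that the rule did not use. A Pf4 UMI was found in 82 of the 92 members. By library that was 88.9% and 86.7% of members in DUX-pulsed replicates 1 and 2, against 90.9% and 87.5% of members in control replicates 1 and 2. Among kept cells of no named class a Pf4 UMI was found in 1.79%, 4.17%, 3.26% and 0.887% of cells in the same order, and among erythroid cells, which should lack the gene, in 2.0%, 0%, 6.25% and 4.55%. With each cell thinned to 5000 UMIs, which leaves out 2, 1, 0 and 3 members, the shares of members were 82.4% and 71.4% in the DUX-pulsed libraries and 90.9% and 80.0% in the controls, against 0.141% to 0.600% of the cells of no named class. Members held a median of 15 of the 24 listed surface receptor genes, with a range of 2 to 21, and the 8464 kept cells with none of the 3 rule genes and fewer than 4 macrophage genes held a median of 2.

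The members that held few of these genes are given here. The 37 members with UMIs of all 3 rule genes had 23370 CPM of Pf4 (counts of the gene as parts per 1000000 of the summed UMIs of those cells) and a median of 17 receptor genes. The 50 members with Itga2b and Gp9 only had 6448 CPM of Pf4 and a median of 14 receptor genes. The 4 members with Itga2b and Ppbp only stood apart, with 223.3 CPM of Pf4 and a median of 3 receptor genes. All of that Pf4, 33 UMIs, came from 1 member in control replicate 2. The others, 1 and 2 members of the DUX-pulsed libraries, held 1 UMI each of Itga2b and Ppbp and no Pf4. They held 244 UMIs of Krt8, 414 of Myl7 and 232 of Krt8, so Pf4 did not bear out the label for them. The 1 member with Gp9 and Ppbp only had 1127 UMIs in all. The 10 members without a Pf4 UMI, 4 and 2 in the DUX-pulsed libraries and 3 and 1 in the controls, held a median of 6.5 receptor genes, and the 82 with one held 15.5. Just outside the rule, 245 kept cells had 1 of the 3 rule genes and fewer than 4 macrophage genes, with 12.23 CPM of Pf4, a Pf4 UMI in 14 of them and a median of 2 receptor genes. A further 4 cells, all in DUX-pulsed replicate 1, had 2 or more rule genes but 4 or more macrophage genes, with 3421 CPM of Pf4.

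**Figure D1:**
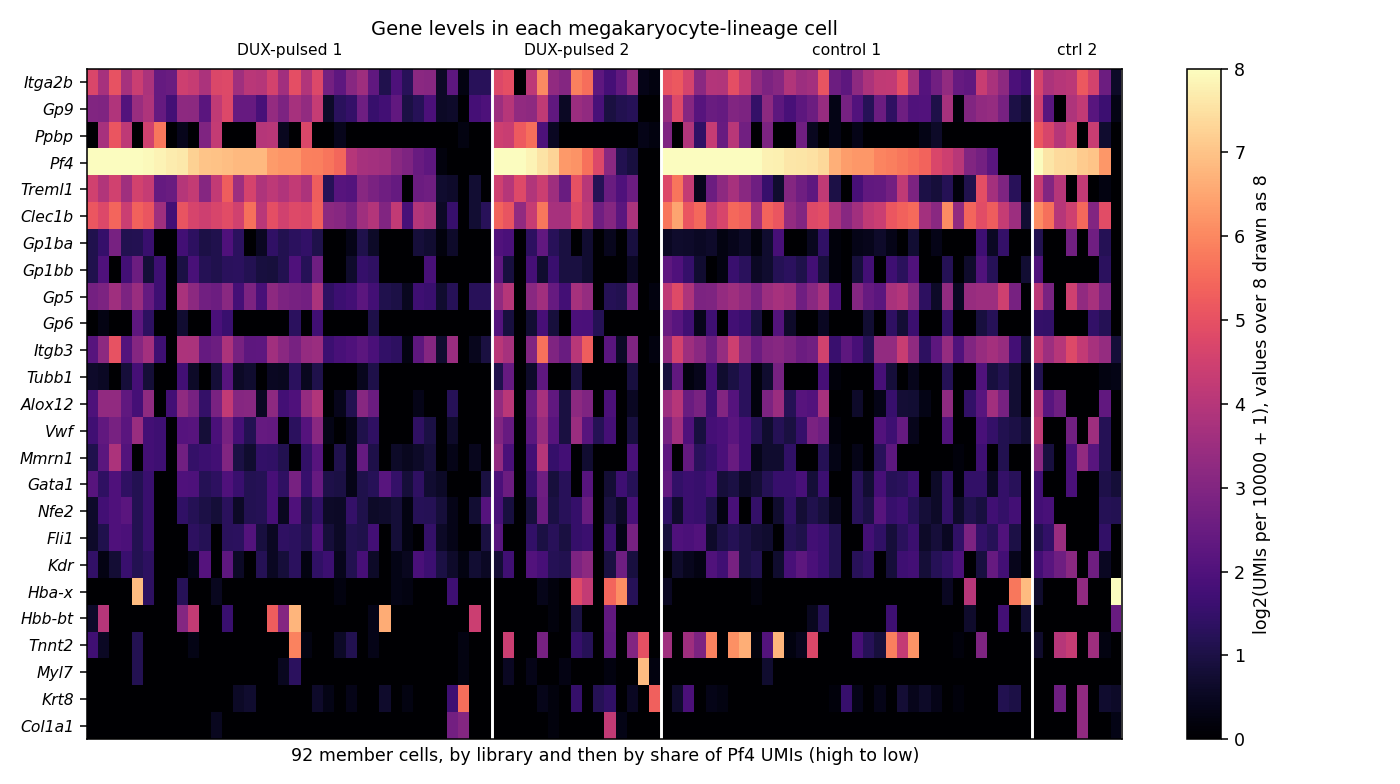
Levels of 25 genes in each of the 92 members, as log2(UMIs per 10000 + 1), 1 column per cell, grouped by library and ordered by the share of Pf4. Pf4, Clec1b and Gp5 are high in most columns, and the columns at the right of each library are the 10 members without Pf4. Krt8 and Myl7 are highest in DUX-pulsed columns without Pf4, and Col1a1 is highest in a column of DUX-pulsed replicate 2 with 43 Pf4 UMIs.

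Members made up 1.75% of kept cells in DUX-pulsed replicate 1 (36 of 2063, exact 95% binomial interval 1.23% to 2.41%) and 1.11% in DUX-pulsed replicate 2 (15 of 1353, 0.622% to 1.82%). They made up 1.17% in control replicate 1 (33 of 2824, 0.806% to 1.64%) and 0.303% in control replicate 2 (8 of 2636, 0.131% to 0.597%). Intervals cover counting error only. DUX-pulsed replicate 2 lay between the controls, so the groups overlapped. The mean share was 1.43% ± 0.450 in DUX-pulsed and 0.736% ± 0.612 in control libraries (SD, n = 2 each), a difference of 0.691 percentage points and a ratio of 1.94. The two-sided exact permutation test gave p = 0.667, and with 2 libraries against 2 it cannot go below 0.33. In edgeR's quasi-likelihood test over the cell counts of 5 classes the log2 difference was 0.96 (SE 0.820, adjusted p = 0.391). Control replicate 2 decided much of the difference: without it the DUX-pulsed mean exceeded control replicate 1 by 0.258 points. Without DUX-pulsed replicate 1 the difference was 0.373 points, and without control replicate 1 it was 1.12 points. The stricter filter on cells, 1000 detected genes and 5% mitochondrial counts, gave a ratio of 1.28.

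**Figure D2:**
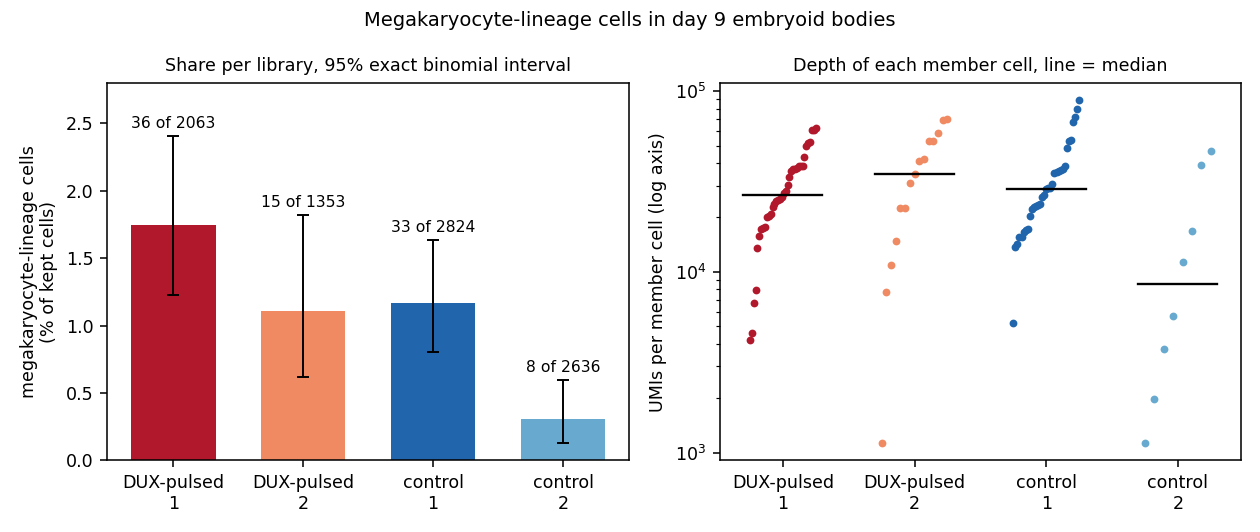
Left, the share of kept cells that are members in each library (%), with exact 95% binomial intervals and the counts behind them. Right, UMIs per member cell on a log axis with the library median as a line, where the 8 members of control replicate 2 lie lowest, at a median of 8520 UMIs.

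Depth per member differed in 1 library. The median member had 26612.5 and 34902 UMIs in DUX-pulsed replicates 1 and 2, against 28896 and 8520 UMIs in control replicates 1 and 2. Set against other kept cells of the same library these were 0.963, 1.28, 0.949 and 0.301 times their median. The summed members held 1078769 and 533592 UMIs in the DUX-pulsed libraries and 1103499 and 126492 in the controls, so values of control replicate 2 carry the largest counting error. Of the 92 members, 1 had a cell barcode that also occurred in another library, and none shared one with another member. Scrublet called 37 doublets (0.417% of kept cells), too few to be relied on, and 17 members were among the top 5% of scores of their library.

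Against all other kept cells of the same library, members were set apart by platelet receptor, chemokine and signalling genes. Control replicate 2, with under 10 members, was not in this fit, which tested 15515 genes. In edgeR's quasi-likelihood test 1687 genes (10.9%) were called higher and 2016 (13.0%) lower at an adjusted p under 0.05. Without DUX-pulsed replicate 1 these counts were 994 and 1100. Members were chosen by megakaryocyte genes and a limit on macrophage genes, and the erythroid, macrophage and endothelial classes below by their own marker genes. Differences between members and other cells are therefore given as a description. Nothing is read from how many listed genes were called.

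The rule genes themselves were high by construction. Itga2b, the alpha chain of the fibrinogen receptor (mm10 chr11, 102453297 to 102470122, minus strand), had 993 and 1509 CPM in DUX-pulsed members and 1247 and 838 CPM in control members. Gp9, a chain of the von Willebrand factor receptor (chr6, 87778072 to 87779768, plus strand), had 493 and 510 CPM in DUX-pulsed members and 428 and 466 CPM in control members. Ppbp, a platelet chemokine, had 465 and 930 CPM in DUX-pulsed members and 258 and 878 CPM in control members. The groups overlapped for Itga2b and Ppbp, and for Gp9 both DUX-pulsed libraries lay above both controls. Rule genes were not tested, and groups did not overlap, one way or the other, for 38.8% of the genes tested between them.

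Pf4 had 8422 and 17952 CPM in DUX-pulsed members and 16949 and 14135 CPM in control members. In all other kept cells of these libraries Pf4 had 15.2, 15.0, 1.24 and 0.974 CPM, a log2 difference of 11.13 (SE 1.08). Pf4 and Ppbp are neighbours on chromosome 5, where GENCODE vM21 places Cxcl5 at 90759360 to 90761624, Ppbp at 90768518 to 90770063 and Pf4 at 90772435 to 90773383, all on the plus strand and within 14024 bases. Cxcl5, a chemokine that attracts neutrophils, had 50.1 and 50.6 CPM in DUX-pulsed members and 85.2 and 63.2 CPM in control members, with a log2 difference of 9.73 from other kept cells. Pf4 and Cxcl5 were higher in members than in other kept cells in every library, while Ppbp was high in members by the rule.

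Of the 24 listed surface receptors 22 could be tested, and 19 were called higher and none lower. Treml1, a receptor of platelet granule membranes, had 897 and 960 CPM in DUX-pulsed members and 664 and 364 CPM in control members, with a log2 difference from other cells of 11.73 (SE 0.961). Clec1b, the podoplanin receptor, had 1593 and 1632 CPM in DUX-pulsed members and 2533 and 2530 CPM in control members (9.16, SE 0.657). Gp5 had 381 and 493 CPM in DUX-pulsed members and 765 and 632 CPM in control members (9.99, SE 0.572). Both control libraries lay above both DUX-pulsed libraries for Clec1b and Gp5 and below them for Treml1, but none of these differences between groups passed the test. Such a separation, either way, was found for 38.8% of all genes tested between the groups. The ligand-binding chain Gp1ba (9.49) and its partner Gp1bb (9.74), the collagen receptor Gp6 (10.19), the fibrinogen receptor beta chain Itgb3 (7.85) and the adhesion receptor Cd226 (11.34) showed log2 differences of the same kind. Cd63, a granule membrane protein found in many cells, had 442 and 611 CPM in DUX-pulsed members and 548 and 474 CPM in control members and was not called (-0.21, SE 0.199). The collagen-binding integrin chain Itga2 and the ADP receptor P2ry12 were at 0 in members of 3 libraries and at 1.81 CPM in those of control replicate 1.

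Of 26 listed granule genes, all tested, 17 were called higher and 3 lower. Vwf, the ligand of the Gp1ba complex, had 170 and 305 CPM in DUX-pulsed members and 177 and 340 CPM in control members (log2 difference from other cells 6.09, SE 0.260). Thbs1, thrombospondin, had 717 and 1891 CPM in DUX-pulsed members and 673 and 838 CPM in control members (5.93). Coagulation factor V, F5, had 40.8 and 91.8 CPM in DUX-pulsed members and 165 and 63.2 CPM in control members (6.01). Mmrn1, which binds factor V in platelets, differed by 9.44, Plek, a substrate of protein kinase C in platelets, by 8.44, and Rab27b, which acts in granule transport, by 7.41. The genes called lower were Gas6 (-3.41), Pdgfa (-3.02) and Sparc (-2.45), which other cells of the culture express more.

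Of 28 signalling genes, all tested, 26 were called higher and 1 lower. Alox12, the platelet lipoxygenase, had 350 and 410 CPM in DUX-pulsed members and 314 and 372 CPM in control members (log2 difference from other cells 10.32, SE 0.429). Rgs18, a brake on platelet G protein signals, had 100.1 and 105 CPM in DUX-pulsed members and 102 and 261 CPM in control members (8.38, SE 0.732). The adaptor Lat (7.56), the kinase Btk (8.10) and the thromboxane synthase Tbxas1 (7.04) were also called higher. Dab2, an endocytic adaptor, was the gene called lower (-5.05), and Stat5a was not called (0.98, SE 0.724). The groups overlapped for Alox12, and for Rgs18 control replicate 2 was the highest.

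In the list of cytoskeleton and integrin activation genes, 17 of 24 were called higher and 1 lower. Tubb1, the beta tubulin of platelets, had 38.0 and 65.6 CPM in DUX-pulsed members and 70.7 and 31.6 CPM in control members (10.04, SE 0.383). Fermt3, the kindlin of blood cells, had 723 and 780 CPM in DUX-pulsed members and 817 and 838 CPM in control members (8.46, SE 0.730). Tmsb4x, which binds actin monomers, had 21943 and 23175 CPM in DUX-pulsed members and 28431 and 28753 CPM in control members (3.98, SE 0.491). Tpm1, a tropomyosin of muscle and other cells, was called lower (-0.99).

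Among 26 listed transcription factors 25 were tested, of which 17 were called higher and 1 lower. Gata1 had 143 and 165 CPM in DUX-pulsed members and 130 and 102.8 CPM in control members (7.19, SE 0.451). Fli1 had 99.2 and 144 CPM in DUX-pulsed members and 152 and 111 CPM in control members (5.37, SE 0.473). Gfi1b, a repressor needed in both the red cell and the platelet lineage, differed by 7.28, Nfe2 by 6.51, Tal1 by 5.79 and Runx1 by 3.84. Gata2, which is higher in progenitors, was not called (1.46, SE 0.452), Mecom was called lower (-2.22), and Gfi1 had no UMI in any member. Spi1, the myeloid factor PU.1, had 66.7 and 9.37 CPM in DUX-pulsed members and 46.2 and 0 CPM in control members and was not called.

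Other lists gave the background of these cells. No gene of 16 in S phase was called, and of 18 in G2 and M phase 1 was called lower, with summed levels of 2018 and 1432 CPM in DUX-pulsed members and 1703 and 877.5 CPM in control members. Among cyclins D and cell cycle inhibitors Ccnd3 (1.70) and Cdkn2d (3.28) were called higher and Cdkn1c (-5.21) lower, of 8 tested. Of 12 tested progenitor genes Adgrg1 was called higher (4.04) and 3 were called lower, among them the receptor Kit (-1.12) and Ifitm1 (-2.53). All 13 endoderm genes, 8 of 12 heart muscle genes and 7 of 10 mesenchyme genes were called lower, and none higher. Of 12 immediate early genes 3 were called higher. Of 15 tested macrophage genes outside the rule Fcer1g, a signalling partner of Gp6 as well as of Fc receptors, was called higher (4.73) and 1 gene lower, and none of 3 tested mast cell and granulocyte genes was called. Of 20 tested erythroid genes 8 were called higher and 1 lower, and of 15 endothelial genes 5 were called each way. The largest decreases named by rule were Apoa2 (-7.51) and Apom (-6.39), apolipoproteins of endoderm.

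**Figure D3:**
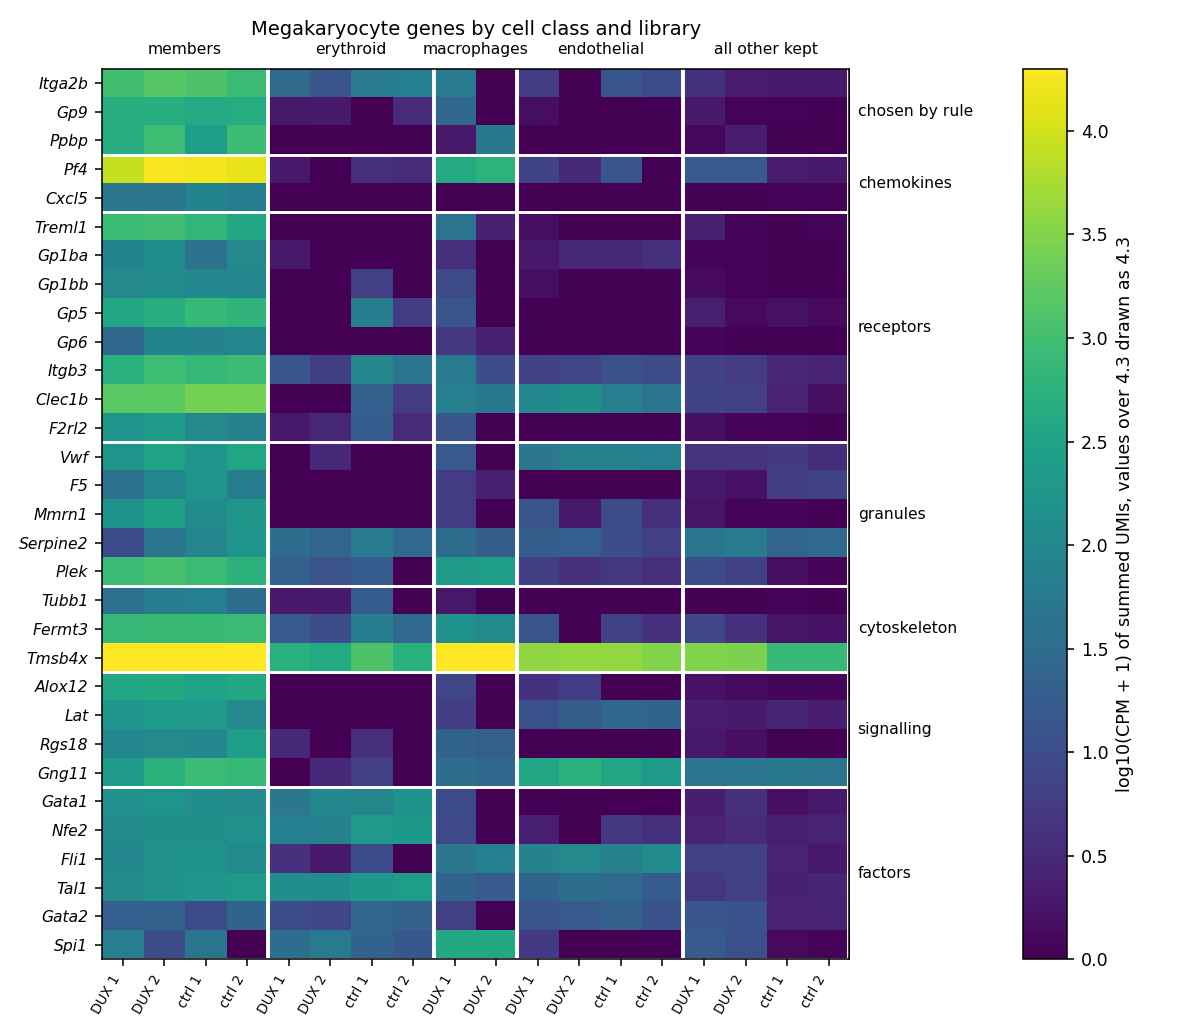
Levels of 31 genes, as log10(CPM + 1) of summed UMIs, in members, erythroid cells, macrophages (DUX-pulsed libraries only), endothelial cells and all other kept cells of each library. The 4 columns of members are bright for the rule genes, chemokines and receptors, while Gata1, Nfe2 and Tal1 are also bright in erythroid cells and Tmsb4x as bright in macrophages.

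Erythroid cells, defined as other kept cells with UMIs in 3 or more of 5 erythroid genes, among them Alas2, Slc4a1, Rhag and Klf1, differed from members in most receptors and in some transcription factors. This fit over 3 libraries tested 7430 genes, with 886 (11.9%) called higher in members and 763 (10.3%) lower, and without DUX-pulsed replicate 1 the counts were 494 and 334. Gata1 had 143 and 165 CPM in DUX-pulsed members and 130 in members of control replicate 1, against 49.6 and 99.8 CPM in DUX-pulsed and 94.5 CPM in control erythroid cells (0.34, SE 0.274, not called). The log2 difference follows edgeR's TMM scaling, which these CPM values do not include. Its factors were 1.17 to 1.29 for members and 0.70 to 0.97 for erythroid cells. Gfi1b (0.34), Nfe2 (-0.27) and Tal1 (-0.58) were not called either, while Fli1 (4.68) and Meis1 (4.40) were called higher and Ldb1 (-2.44) and Zfpm1 (-0.90) lower. Of the tested lists, 16 of 18 receptors, 16 of 22 granule genes, 19 of 21 cytoskeleton genes and 25 of 27 signalling genes were called higher, against 7 of 21 transcription factors. Treml1 had no UMI in erythroid cells of these libraries, so its level was at least 630-fold higher in members, taking 3 counts over those cells as the floor. On the same floor Alox12 was at least 269-fold and Lat at least 157-fold higher. All but 1 of the 15 tested erythroid genes were called lower in members, among them the embryonic alpha globin Hba-x (-7.75), and the mitochondrial iron carrier Slc25a37 was lower by a log2 difference of -9.15. Near-identical globin copies cannot be separated in such counts.

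Macrophages, the kept cells with 4 or more of the 6 macrophage genes, numbered 59 and 16 in the DUX-pulsed libraries and 0 and 0 in the controls. In those 2 libraries 7889 genes were tested, with 899 (11.4%) called higher in members and 1020 (12.9%) lower. Pf4 itself was present there, with 8422 and 17952 CPM in members and 420 and 610 CPM in macrophages (log2 difference 4.68, SE 0.304), and 39.0% and 31.2% of macrophages held a Pf4 UMI. Npy, a neuropeptide gene, had no UMI in macrophages and was at least 61.1-fold higher in members, and Mpig6b, an inhibitory receptor of megakaryocytes, was higher by 7.17 on the log2 scale. Secreted Spp1, the chemokine Ccl4 and the calcium-binding protein Aif1 had no UMI in DUX-pulsed members and were at least 318-fold, 221-fold and 111-fold lower there. Both classes were chosen by how many of the 6 macrophage genes they held. All 15 tested macrophage genes outside the rule were called lower in members, and so were 6 of 15 S phase and 4 of 18 G2 and M phase genes. Tmsb4x (-0.25) and Runx1 (-0.28) were not called.

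Endothelial cells, other kept cells with UMIs in 3 or more of Cdh5, Kdr, Emcn, Tie1 and Tek, numbered 70 and 40 in the DUX-pulsed libraries and 42 and 12 in the controls. Over 9449 genes, in the same 3 libraries as the erythroid fit, 1558 (16.5%) were called higher in members and 1717 (18.2%) lower, and without DUX-pulsed replicate 1 the counts were 994 and 1056. Some genes were present in both. Kdr, a receptor of vascular endothelial growth factor, had 102 and 187 CPM in DUX-pulsed members and 158 and 134 CPM in control members, but it served to define the endothelial class and was not tested against it. Vwf was higher in members by 1.89 on the log2 scale (SE 0.183), with 50.3 and 73.3 CPM in DUX-pulsed and 72.3 and 70.3 CPM in control endothelial cells. Clec1b had 99.7 and 138.7 CPM in DUX-pulsed and 67.6 and 45.0 CPM in control endothelial cells, and was higher in members by 4.44 (SE 0.360). Esam (-1.27) and Pecam1 (-1.87), adhesion molecules of both platelets and vessels, were lower in members. Icam2 and Cldn5 had no UMI in any member and were at least 314-fold and 240-fold lower, on a floor of 3 counts over the members. Gp5 and Gata1 had no UMI in endothelial cells and were at least 898-fold and 228-fold higher in members.

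The comparison of DUX-pulsed with control members asked whether the pulse given to the stem cells was still seen in these cells at day 9. The rule used no difference between groups, so this comparison was tested, over all 4 libraries. Of 6363 genes tested 29 were called (0.456%), 18 higher (0.283%) and 11 lower (0.173%) in DUX-pulsed members in edgeR's quasi-likelihood test, and 544 had an unadjusted p under 0.05.

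Genes of some chromosome regions moved together between the groups. The 227 tested genes of chromosome 13 had a median log2 difference of 0.86 in members, against -0.02 over the genes of all other chromosomes, and 92.1% of them were higher in DUX-pulsed members, against 47.9% elsewhere. Chromosome 13 held 2.90% and 2.95% of the UMIs of DUX-pulsed members and 2.04% and 1.58% of those of control members. In other kept cells its genes had a median difference of 0.95, with 3.31% and 2.93% of UMIs in DUX-pulsed and 2.18% and 2.06% in control libraries. The groups did not overlap in either. A median beyond 0.3 either way over 51 neighbouring genes, a limit chosen after seeing the data, was also found for 116 genes at the end of chromosome 4 (median 0.93), 194 at the end of chromosome 5 (-0.50), 38 on chromosome 16 (-0.48) and 1 on chromosome 14. For genes of these regions a shift of the whole region and an effect of the pulse cannot be told apart. No gene of chromosome 13 was called, but 81 of its 227 genes were higher at an unadjusted p under 0.05 in edgeR. Over all 6363 genes tested, 544 had such a p in either direction. Of the 29 called genes 2 lay in the shifted regions, Eno1 (median of 0.87 around it) and Tinagl1 (0.42), both on chromosome 4. Of the 107 tested genes of the megakaryocyte lists 8 lay there, among them F2rl2 and Mef2c on chromosome 13 and Runx1 on chromosome 16. Around Pf4 the median was 0.02.

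None of the 107 tested genes of the 5 megakaryocyte lists was called between the groups by edgeR or DESeq2. In edgeR 18 of them had an unadjusted p under 0.05, a larger share than the 544 of all 6363 genes tested. They were 5 receptors, 5 granule genes, 5 cytoskeleton genes, 3 signalling genes and no transcription factor. Among them F2rl2, on chromosome 13, and Orai1, on chromosome 5, lay in the shifted regions. The tested genes were 18 receptors, 21 granule genes, 21 transcription factors, 21 cytoskeleton genes and 26 signalling genes, with median log2 differences of -0.29, -0.13, -0.21, -0.39 and -0.01 against -0.01 over all genes tested. Pf4 differed by -0.31 (SE 0.309, edgeR adjusted p = 0.901), Gata1 by 0.32 (SE 0.336), Itgb3 by -0.20 (SE 0.316) and Alox12 by 0.11 (SE 0.307).

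The 11 genes that were lower in DUX-pulsed members included a cell cycle inhibitor, a coregulator and membrane proteins. Slc24a1, a sodium, potassium and calcium exchanger, had 20.4 and 9.37 CPM in DUX-pulsed members and 291 and 87.0 CPM in control members (log2 difference -3.71, SE 0.530, edgeR adjusted p = 0.00627). It was found in 9 of 36 and 4 of 15 DUX-pulsed members, against 29 of 33 and 4 of 8 control members. Cdkn1a, the p21 inhibitor of cyclin-dependent kinases, had 61.2 and 39.4 CPM in DUX-pulsed members and 198 and 403 CPM in control members (-2.52, SE 0.436, edgeR adjusted p = 0.0189). Its level in other kept cells was 215 and 150 CPM in DUX-pulsed and 159 and 163 CPM in control libraries. Phlda3 (-2.02), a repressor of AKT that like Cdkn1a is a p53 target, and Psrc1 (-2.53), a spindle protein, were lower too. Cited2, a transcriptional coregulator, had 299 and 324 CPM in DUX-pulsed members and 954 and 1312 CPM in control members (-1.91, SE 0.312, edgeR adjusted p = 0.0147). Ifitm3, an antiviral membrane protein, differed by -2.13, Anxa3, an annexin, by -1.90, Cdc42ep5, an effector of Cdc42, by -1.69, the galectin-like Lgalsl by -2.42 and the arsenic methyltransferase As3mt by -3.57. For each of these 10 named genes both DUX-pulsed libraries lay below both controls, and the groups did not overlap, one way or the other, for 38.8% of all genes tested.

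Of the 18 genes that were higher in DUX-pulsed members, 14 had at least 50% of their UMIs in a single cell of each DUX-pulsed library, and Eno1, Hmga2, Rac2 and Gata6 did not. Gata6, found in only 5 DUX-pulsed members, still had 69.7% of its UMIs in 1 cell of DUX-pulsed replicate 1. Rac2 had 63.2% in 1 cell of DUX-pulsed replicate 2. Eno1, a glycolytic enzyme, was found in 50 of the 51 DUX-pulsed members and 36 of the 41 control members. It had 1298 and 1203 CPM in DUX-pulsed members and 443 and 277 CPM in control members (1.72, SE 0.314, edgeR adjusted p = 0.0266). In all other kept cells Eno1 differed between the groups by 1.60. Members and other kept cells did not differ in this past the threshold (0.20, edgeR interaction test, adjusted p = 0.86). Hmga2, a chromatin protein of embryonic cells, was found in 24 DUX-pulsed and 7 control members (2.99). Eno1, Hmga2 and Gata6 were chosen after their values were seen. Acta2, smooth muscle actin, had 186 and 294 CPM in DUX-pulsed members and 5.44 and 0 CPM in control members (5.58, SE 0.557, edgeR adjusted p = 0.000335), and 1 cell in each DUX-pulsed library held 87.6% and 76.4% of its UMIs. Plagl1, an imprinted zinc finger factor, had 143 and 157 CPM in DUX-pulsed members and 2.72 and 0 CPM in control members (5.85, SE 0.584, edgeR adjusted p = 0.000335), with 70.1% and 72.6% of its UMIs in 1 cell. The fibrillar collagen Col3a1 had 155 and 59.97 CPM in DUX-pulsed members and no UMI in control members, at least 50.6-fold higher on a floor of 3 counts over the control members. The keratin Krt8 had 240 and 463 CPM in DUX-pulsed members and 29.9 and 55.3 CPM in control members, with 94.2% and 93.9% of its UMIs in 1 cell of each DUX-pulsed library. Col1a1 (5.83), the neuropilin Nrp1 (5.82), Nnat (4.41), Itm2a (4.20), the blood cell GTPase Rac2 (4.15), Anxa2 (3.27) and Krt19 (3.22) were also higher.

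In DUX-pulsed replicate 1 the same cell held the highest count of 14 of the 18 genes. That cell had 1 UMI each of Itga2b and Ppbp, none of Gp9, Pf4, Treml1 or Clec1b, 2 receptor genes and 244 UMIs of Krt8. In DUX-pulsed replicate 2, 1 cell with 43 Pf4 UMIs held the highest count of 10 genes and another, with no Pf4 UMI and 232 UMIs of Krt8, that of 6. The summed mesenchyme genes stood at 496.9 and 391.7 CPM in DUX-pulsed members and 9.968 and 31.62 CPM in control members, with none of the 10 genes without a UMI, and endoderm genes at 416.2 and 3495 CPM in DUX-pulsed and 662.4 and 490.1 CPM in control members. With members required to hold a Pf4 UMI, an alternative added after seeing the data, 8 of the 18 higher genes could be tested and 2 were called, and all 11 lower genes could be tested and 9 were called.

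Single cells also weighed on the lower genes, in the control with 8 members. In control replicate 2, 7 of the 11 lower genes had 50% or more of their UMIs in 1 member, among them Anxa3 (73.9%), Phlda3 (66.7%) and Cdkn1a (58.8%). In control replicate 1 the highest member held 9.7% to 26.5%. In control replicate 2 a member with 14.5% globin counts, all 5 erythroid genes and no Pf4 UMI held the highest count of 5 of these genes, and another with 351 Pf4 UMIs that of 5 more. Without members that held 3 or more erythroid genes or over 1% globin counts, an alternative added after seeing the data, 8 of the 11 lower genes and 8 of the 13 higher genes still tested were called.

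Single libraries decided these counts too. Without control replicate 2, 47 genes were higher and 19 lower, and without control replicate 1, 9 and 20. Without DUX-pulsed replicate 1, 4 were higher and none lower, with 347 genes at an unadjusted p under 0.05, and without DUX-pulsed replicate 2 none was called, with 346 at that level. Of the 11 lower genes, none was called without either DUX-pulsed library, whereas 10 of 10 tested were called without control replicate 2 and 6 of 9 without control replicate 1. The 18 higher genes were also higher in other kept cells of the DUX-pulsed libraries in 13 cases, and the 11 lower genes were lower there in 2. The share of all 6363 tested genes that differed in other kept cells is not given here, so nothing is read from these counts.

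**Figure D4:**
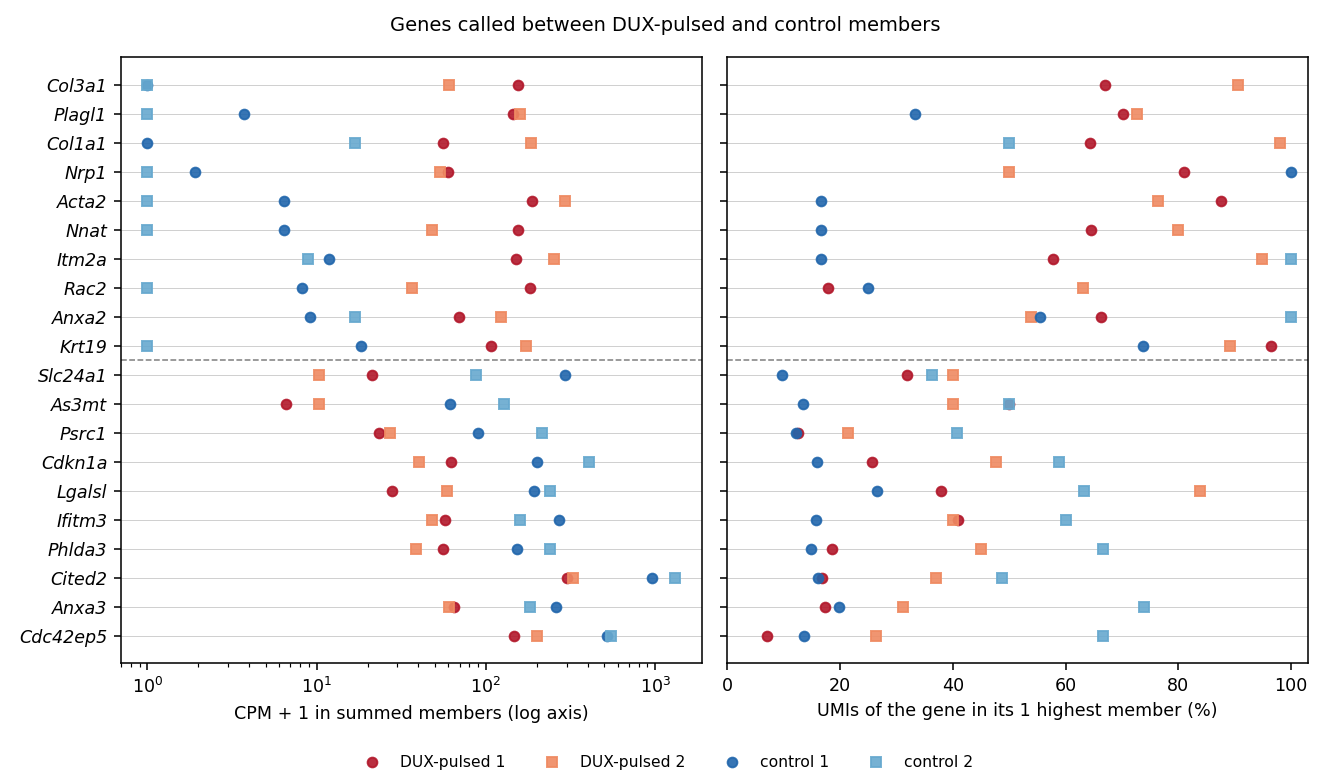
Left, CPM + 1 on a log axis of the 20 named genes in summed members of each library, with genes higher in DUX-pulsed members above the dashed line and lower ones below it. Right, the percentage of each gene's UMIs that came from its 1 highest member, which is at or above 50% in both DUX-pulsed libraries for 9 of the 10 genes above the line, all but Rac2.

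Tnnt2, troponin T of heart muscle, was found in members of every library. It had a UMI in 10 of 36 and 7 of 15 DUX-pulsed members and in 20 of 33 and 5 of 8 control members, against 37.1% and 37.7% of unclassed DUX-pulsed cells and 12.3% and 10.8% of unclassed control cells. Endothelial cells held it in 37.1% and 27.5% of DUX-pulsed and 35.7% and 33.3% of control cells. Erythroid cells held it in 14.0% and 14.3% of DUX-pulsed and 0% and 4.55% of control cells, and macrophages in 15.3% and 6.25%. Members with 10 or more Tnnt2 UMIs numbered 1 and 5 in the DUX-pulsed libraries and 12 and 0 in the controls. The 12 cells of control replicate 1 had a median of 117 Tnnt2 UMIs, 4 UMIs in all of the other listed heart muscle genes, and Pf4 in each cell. In DUX-pulsed replicate 2 the 5 cells had 1473 UMIs of other heart muscle genes, 1469 of them in 1 cell. Tnnt2 was not called between groups (-1.89, edgeR adjusted p = 0.492).

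**Figure D5:**
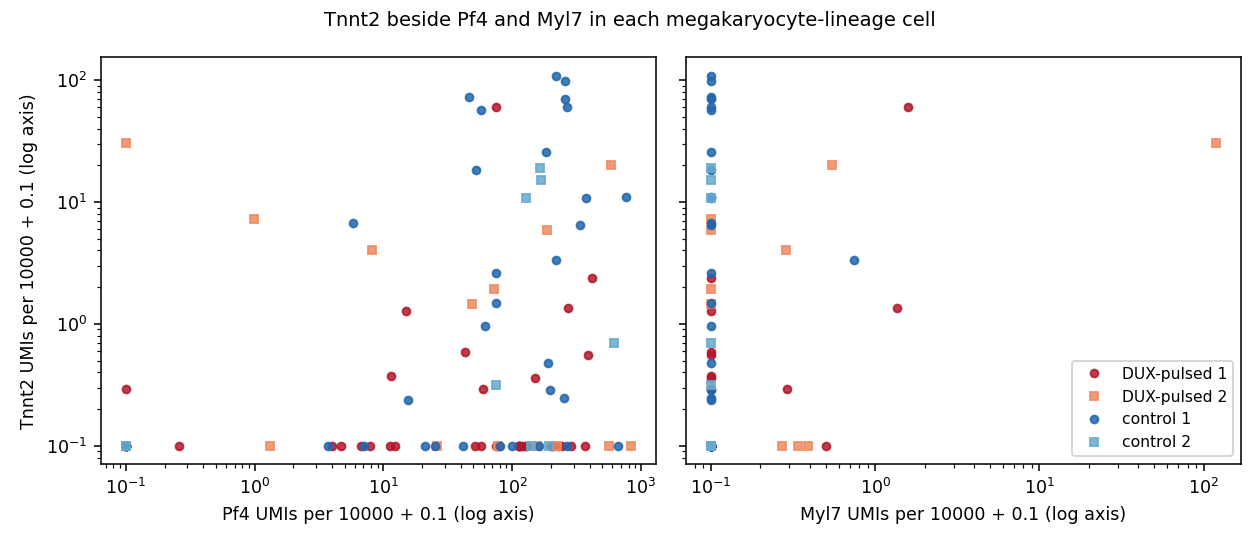
Tnnt2 UMIs per 10000 in each member against Pf4 (left) and Myl7 (right), all axes logarithmic after adding 0.1. Of the members with Tnnt2, those of control replicate 1 hold Pf4 and almost no Myl7, the atrial myosin light chain, and 1 member of DUX-pulsed replicate 2 holds Tnnt2 with much Myl7 and no Pf4.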

How the data were processed

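The deposited table held raw UMI counts per gene and cell, made by the authors with no normalization, for 20284 genes and 10090 cells. Cell Ranger 2.2.0, STAR and the build mm10 are named in the submitters' processing notes. A filter on cells is not given in the sources used here, and the table ran down to 501 genes and up to 19.98% mitochondrial counts per cell. Groups and replicates came from the column names. Members and gene lists were chosen with earlier results of these data known.

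Kept cells (500 or more genes, mitochondrial counts of 10% or less) had median depths of 27260 to 30402.5 UMIs per library and 36462169 to 96344329 UMIs in all. Counts were summed per library and class and tested with edgeR 4.0.16 (quasi-likelihood, TMM, Benjamini-Hochberg, 0.05) in R 4.3.3, with library as a block between classes and no block between groups. Genes needed 10 counts in 2 sums and 40 in all. Classes entered with 10 cells in a library, groups with 5 members. The 9 rule genes were not tested. DESeq2 1.42.0, DESeq2 size factors, no filter on low counts, other cell filters and member rules, Scrublet scores (scanpy 1.11.5), a replicate block and leaving out libraries were the alternatives. The difference of the group differences between members and other kept cells was tested as an interaction in the same model. Scripts were tested on simulated data.

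Some listed genes are not reported here. Genes named were those of the marker and megakaryocyte lists, the 20 largest increases and 10 largest decreases against other cells and the 8 each way against each class with at least 50 CPM, and the 10 each way between groups that also did not overlap. Mitochondrial, ribosomal protein and predicted genes (Gm, Rik) were not named. Gene positions came from GENCODE vM21. Overlapping genes and close paralogs cannot be separated in these counts.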

Additional observations from a re-analysis of the deposited data

Results flagged for a closer look

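In 15 of the genes that differed between DUX-pulsed and control members, that difference was itself different from the one in all other kept cells of the same libraries by edgeR's quasi-likelihood interaction test (adjusted p under 0.05 over 6363 genes, of which 16 had a positive and 109 a negative interaction). Each value below is the log2 difference between groups in members minus that in other kept cells. The mix of other kept cells differed between the groups, with 59 and 16 macrophages in DUX-pulsed and 0 and 0 in control libraries. Pf4, for example, had an interaction of -4.19, with -0.31 in members and 3.84 in other kept cells. What part of each interaction came from that mix was not tested. Among genes higher in DUX-pulsed members it was 3.86 for Plagl1, 5.83 for Nrp1, 4.24 for Acta2, 2.06 for Itm2a, 3.25 for Krt19, 3.76 for Krt8, 4.22 for Gata6 and 1.70 for Fn1. For 7 of these 8 genes, all but Gata6, 1 cell held at least 50% of the UMIs in each DUX-pulsed library. For Gata6 the highest cell held 69.7% and 37.5%. Gata6 and Fn1 were chosen after their values were seen. Among genes lower in DUX-pulsed members it was -2.96 for Psrc1, -2.69 for Cdkn1a, -2.47 for Lgalsl, -2.24 for Cdc42ep5, -2.23 for Phlda3, -2.12 for Anxa3 and -1.96 for Ifitm3. For all of these but Psrc1 (40.7%), 1 member held 58.8% to 73.9% of the UMIs in control replicate 2. In control replicate 1 the highest member held at most 26.5%. Cdkn1a differed by -2.52 in members and by 0.26 in other kept cells, and Psrc1 by -2.53 in members and 0.60 in other kept cells. Slc24a1 had no such difference past the threshold, at -1.73 (edgeR adjusted p = 0.379).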

How the results depend on the processing

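Between classes, counts of genes higher and lower in members moved by over 1.5 times under few alternatives. Against all other kept cells they ranged from 994 to 1528 higher and 1100 to 1893 lower with 1 library left out, and the lower count was 3033 with a Pf4 UMI required and 3216 with 2 or more UMIs of 2 rule genes required. Against erythroid cells they ranged from 494 to 868 and 334 to 776 with 1 library left out, and 556 were higher with all 3 rule genes required. Against macrophages DESeq2 called 376 higher and 311 lower. Against endothelial cells the ranges were 994 to 1334 and 1056 to 1543. Between DUX-pulsed and control members, leaving out 1 library gave 0 to 47 higher and 0 to 20 lower. No filter on low counts gave 158 and 74, the stricter cell filter 57 and 24, libraries with 10 or more members 47 and 19. The higher count was 34 with fewer than 2 macrophage genes, 9 without members holding erythroid genes and 10 with Pf4 required, and the lower count was 21 with 2 or more UMIs. DESeq2 called 11 of the 18 higher and all 11 lower genes. Requiring Pf4, other UMI rules and libraries with 5 or 10 members were added after seeing the data. The replicate numbers pair no libraries in the labels, and deviations of same-numbered libraries correlated at 0.114 over 6363 genes with 2 pairs. With a replicate block 144 genes were higher and 96 lower, among them all 29 called without it, and the log2 difference in share was 0.89 against 0.96. The share difference stayed positive under every alternative run, from 0.157 to 0.788 percentage points, and from 0.258 to 1.12 with 1 library left out. Over 663 results for single genes, 8805 of 9108 alternative values kept direction and call, 164 lost and 139 gained a call, and 0 reversed. These counts were not split by comparison. Of the genes called between groups, 2 of the 8 higher and 9 of the 11 lower genes tested were still called with a Pf4 UMI required. Depth limits control replicate 2 most, with 126492 member UMIs in 8 cells.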

Other observations

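Other genes were unevenly shared among members. Npy, a neuropeptide, was found in 11 of 36 and 4 of 15 DUX-pulsed members and 11 of 33 and 3 of 8 control members, with 41.7 and 105 CPM in DUX-pulsed and 536 and 142 CPM in control members (log2 difference -2.39, edgeR adjusted p = 0.068). Slpi, a protease inhibitor, had 164 and 9.37 CPM in DUX-pulsed members and no UMI in control members. A single member of DUX-pulsed replicate 1 held 125 Slpi UMIs and the next highest there 22. In DUX-pulsed replicate 2 no member held more than 3. Cxcl3, the next chemokine gene after Pf4, had 1.85 and 1.87 CPM in DUX-pulsed members and 36.3 and 55.3 CPM in control members and was not tested. Slpi and Cxcl3 were chosen after their values were seen. Globin UMIs came largely from single members, the highest of which held 24.1% and 49.7% of them in the DUX-pulsed libraries and 72.2% and 99.0% in the controls. Members with over 1% globin counts numbered 3 and 2 in the DUX-pulsed libraries and 2 and 1 in the controls.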
